A study of Mus musculus with 22 samples.

Results

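Translation factors carry out protein synthesis on the ribosome, and the chaperonin CCT folds some of its newly made products. The genes were chosen by name: a symbol starting with Eif or Eef, Cct followed by a digit, or Tcp1, Pabpc1, Npm1, Ncl or Fbl. On the arrays 54 genes had such a symbol alone on a probe set, of 6118 genes named in all. Of these, 48 were bright enough to be tested, of 4130 genes tested. The lungs were whole, normal lungs of Swiss Webster mice at 11 ages, with no mutation or treatment named in the labels. Embryonic lungs were taken at days 12, 14, 16 and 18 (E12 to E18), and postnatal lungs at days 1, 4, 7, 10, 14 and 21 (P1 to P21) and in the adult. Each age was 1 pool of RNA from at least 3 lungs, hybridised once to each of the 2 chips of the Affymetrix Mu11K set, here chip A and chip B, so no age had a replicate. Whole lungs were pooled before RNA was extracted at E12, E14 and E16, and RNA was extracted from individual lungs and then pooled at all later ages. Values are linear signal intensities of a probe set, scaled by the authors, and levels of different genes are not compared because each has its own probes. Signals listed from P1 to the adult age run in order of age.

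In initiation, the eIF2 complex brings the first transfer RNA to the small ribosomal subunit, and eIF2B reloads eIF2 with GTP. The eIF4 proteins recognise the cap of a messenger RNA and unwind its start, eIF3 holds the small subunit, and eIF1 and eIF5 act when the start codon is found. The eEF1 and eEF2 factors then deliver transfer RNAs and move the ribosome along. CCT is a barrel of different subunits, Tcp1 and the Cct proteins, that folds actin and tubulin. Nucleolin (Ncl) and fibrillarin (Fbl) are nucleolar proteins of ribosome production. Growing tissues make much protein, and the embryonic lung is growing by branching while the lung after birth divides its air spaces into alveoli.

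Most of these genes were highest in the youngest lungs, with the greatest fall between E16 and E18. The signal was highest at E12, E14 or E16 in 38 of the 48 genes, against 36.6% of all genes tested. Signals at E12, E14 and E16 were each above all 8 later ages in 27 genes, against 17.9% of all genes. No member had all 3 early signals below all 8 later ones, a pattern of 17.3% of all genes. The median over the 48 genes, as log2 signal minus each gene's own mean over the 11 ages, was 0.68 at E12, 0.60 at E14 and 0.43 at E16. It was -0.08 at E18, lay between -0.32 and -0.003 from P1 to P14, and was -0.52 at P21 and -0.35 in the adult. The same median over all 4130 genes stayed between -0.03 and 0.04.

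**Figure D1:**
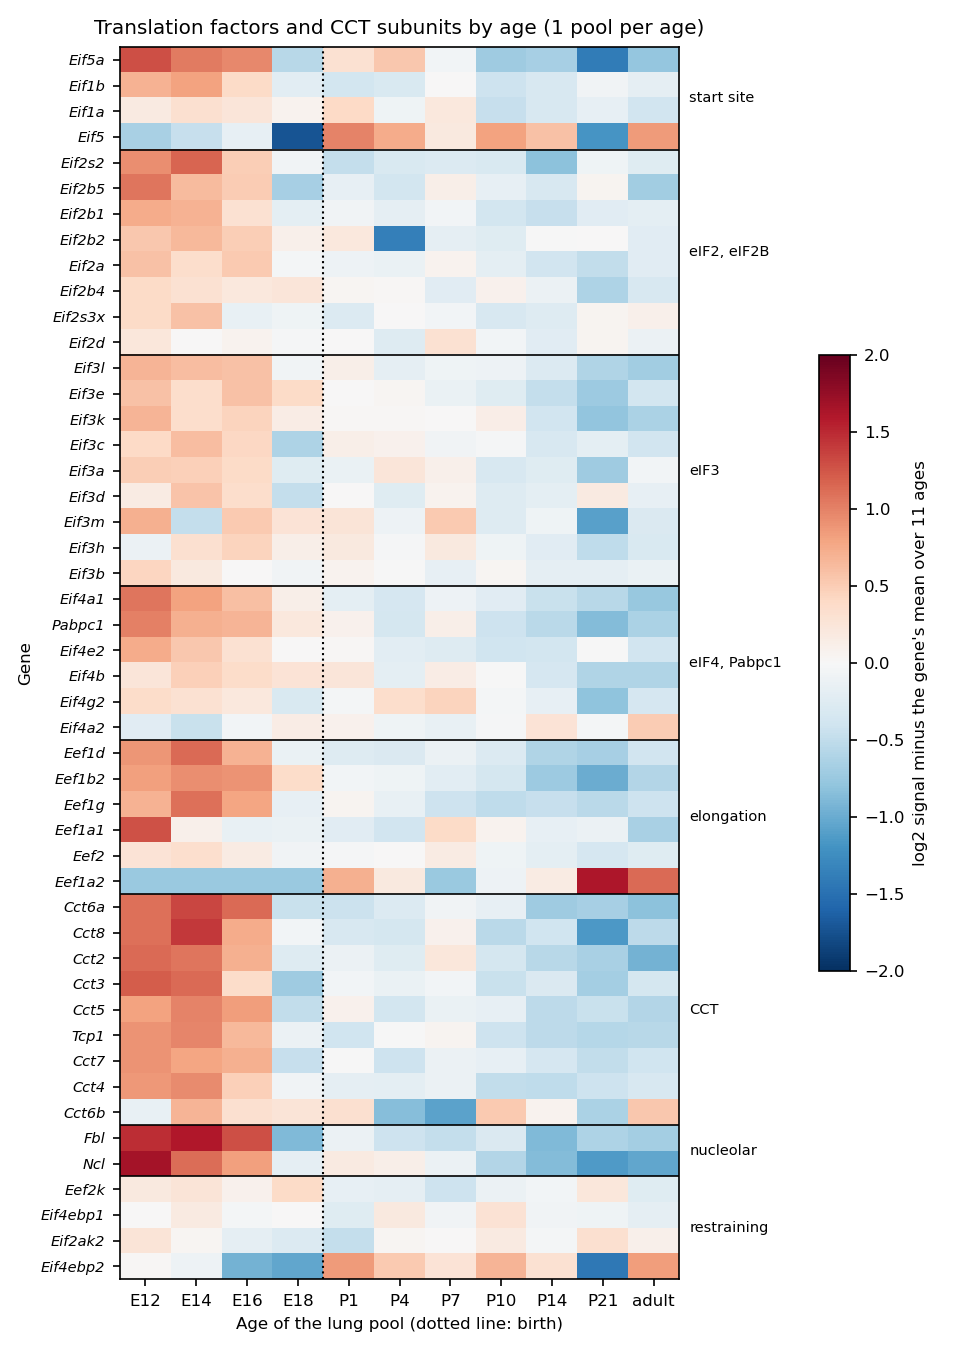
Heat map of log2 signal minus the gene's mean over 11 ages for the 48 genes (rows, grouped by role) at each age (columns, 1 pool each, with a dotted line at birth). The red block at E12 to E16 holds most genes, while Eif5, Eef1a2, Eif4a2 and the genes that restrain translation do not share it.

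Postnatal ages were compared with embryonic ages (7 pools against 4) by limma on log2 signals. A gene was called where its p, adjusted by Benjamini-Hochberg across the 4130 genes, was under 0.05. Of the 48 genes, 24 were lower after birth, against 14.2% of all genes tested. Of the members, 2 were called higher, Eef1a2 and Eif5, against 16.8% of all genes, and both calls were lost without the filter on dim probe sets (adjusted p = 0.0659 and 0.0928). Eef1a2 was bright enough only through its P21 and adult signals, so the filter favoured its call. The other 47 members were above the chip median on both sides of birth and of the division between E16 and E18. Without the filter, 20 of 54 members were lower after birth and 30 from E18 on. The genes tested without the filter were nearly all of the 6118 named, and of these 521 were lower after birth and 932 from E18 on. The shares given here for all genes are shares of the 4130 and do not apply to this larger set. With the filter, the median difference between eras was -0.61 over the members (range -1.36 to 1.18) and 0.01 over all genes. Fitted as a line through all 11 ages in order, 32 members fell, against 19.7% of all genes, and 1 member, again Eef1a2, was called higher, against 22.1%. E18 to adult (8 pools) set against E12 to E16 (3 pools) gave 30 members lower, against 21.0% of all genes, and 0 higher, against 23.4%. With 1 pool per age, the error was the scatter of pools around the fitted pattern. Neighbouring ages resemble each other and are not replicates, and the p-values are likely too low.

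The division before E18 was chosen with earlier results of these data known and is not independent evidence of where the fall lies. It coincides with the change from pooled to individual extraction, and the effects of age and extraction cannot be told apart there. The postnatal count was smaller when E12 or E14 was left out: without the E12 pool 11 members were lower after birth, and without the E14 pool 10 were. Some calls, among them Cct5, Cct7 and Fbl, were also lost without E16. Each such fit has 1 embryonic pool fewer, and the part of that in the lost calls was not tested. With age order added to the same fit, 0 members kept a difference between eras. Of the 26 members called between eras, 10 were called with any single age left out (Cct4, Cct8, Eef1b2, Eef1d, Eef1g, Eif2s2, Eif3e, Eif4a1, Pabpc1 and Tcp1). Of the 30 called lower from E18 on, 24 were. The division before E18 called between 25 and 32 members lower when any single age was left out. Counts over all genes are not given here for these fits, so the members' counts have no share beside them. Both chips showed the pattern, but they were hybridised with the same pools and are not independent of each other. On chip A 16 of 30 members were lower from E18 on (22.8% of its genes), and on chip B 14 of 18 (16.6% of its genes). With each array centred on its median, 35 members were lower from E18 on, and of all genes 1098 were lower and 758 higher, against 868 and 966 as deposited. The same centring gave 1028 genes falling and 711 rising with age order, against 813 and 913.

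**Figure D2:**
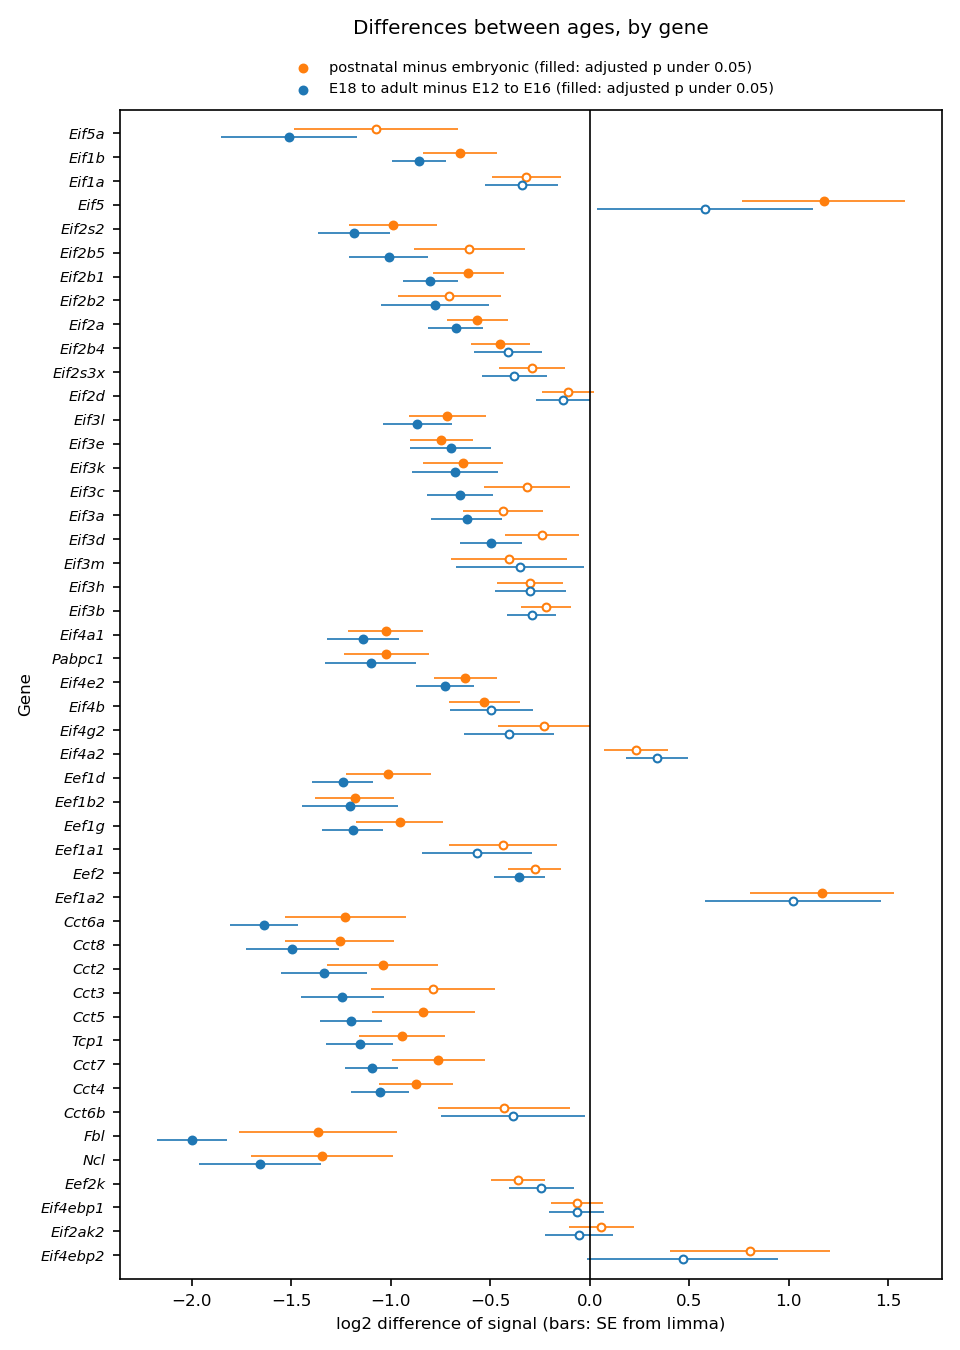
log2 differences of signal (horizontal axis) for the 48 genes, postnatal minus embryonic in orange and E18 to adult minus E12 to E16 in blue, with bars for limma's SE and filled points for an adjusted p under 0.05. Most points lie left of 0, from -2.00 in Fbl, and Eif5 and Eef1a2 are filled on the right in orange only.

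Cell cycle genes followed a similar course. All 18 genes of that list were lower from E18 on, and their summed signal was 35952.5 to 39662 at E12 to E16 against 5502 to 20271 later. Their median on the same centred scale was 1.15 at E16, -0.22 at E18, 0.35 at P4 and -1.54 in the adult. The members' median at P4 was -0.14. In whole lung, fewer cells of a type and less RNA per cell cannot be told apart, and the part of cell division in the members' fall was not tested. Among lung epithelial markers, the summed signal of 5 genes was 3533 at E12 and 15069.5 at E16, lay between 16848 and 28842 from E18 on, and was 19898 in the adult. Of the 5, Sftpc and Nkx2-1 did not pass from E18 on, and Sftpc went from 10931 at E16 to 3274 at E18. Of 7 macrophage markers kept, 5 were above the chip median both before and from E18 on, and all 5 were higher from E18 on. The 7 had a summed signal of 2452 to 4506 at E12 to E16 and 14367 to 19721 later. The summed signal of 6 erythroid markers was 45645 at E12, 26742 at E14 and between 4888 and 11729 from E16 on. The globins Hba-a1, Hbb-y and Hba-x made up most of the early sum, while Slc4a1 did not pass (0.02 from E18 on) and Alas2 was 2477 at E12 and 8710.0 at P10.

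**Figure D3:**
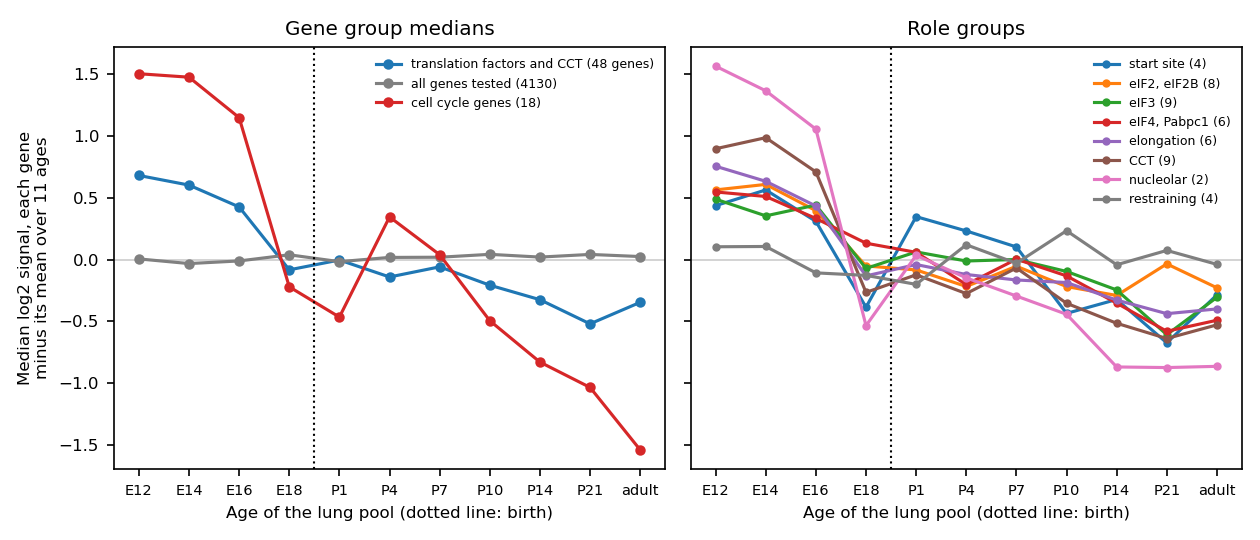
Median log2 signal, each gene minus its mean over 11 ages (vertical axis), by age (horizontal axis, birth dotted), for the 48 genes, all genes tested and 18 cell cycle genes on the left, and for the 8 role groups on the right. The members' median goes from 0.43 at E16 to -0.08 at E18, the nucleolar pair from 1.06 to -0.53, and the restraining group stays between -0.20 and 0.23.

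The promoters of members that fell together are shown for the E-box CACGTG, the letters bound by MYC and MAX, factors known to drive growth genes. RefSeq promoter sequence (build GRCm38.p6, 250 bases before to 50 after each start) was found for 38 of the 48 members. The motif reads the same on both strands. It was present in 7 of these 38 (18.4%), in 412 of the 3310 tested genes with a promoter (12.4%) and in 8.09% of all 27025 genes with one. Of the members lower from E18 on, 6 of 24 (25%) held it, and of the others 1 of 14 (7.14%). These counts are small and their difference was not tested. The share among all genes lower from E18 on was not counted. The windows below, with the motif in capitals, are those lying before the start.
Eef2, chr10:81176576-81176605, plus strand: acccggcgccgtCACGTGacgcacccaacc
Eif1b, chr9:120492570-120492599, plus strand: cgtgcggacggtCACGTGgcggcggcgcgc
Eif3k, chr7:28981915-28981944, minus strand: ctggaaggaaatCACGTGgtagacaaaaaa
Eif4a1, chr11:69672595-69672624, minus strand: cgatcgcctccgCACGTGtaaaggtgctgg
Eif5a, chr11:69921443-69921472, minus strand: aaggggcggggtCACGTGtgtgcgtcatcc
Eef2k, chr7:120842788-120842817, plus strand: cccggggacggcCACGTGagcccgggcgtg
The match lay 24 bases before the start in Eif1b, 31 in Eef2k, 43 in Eef2, 44 in Eif3k and 189 in Eif4a1. Eif5a, which has several annotated starts, held a further match that is not shown, and Eif3a held the motif after its start. The first 5 of the genes shown were lower from E18 on by the test, and Eef2k was not. Some of these calls depended on single ages. Eef2 kept its call in 4 of the 11 fits that left out 1 age. Eif3k lost its call without E12, and Eif3a without E12 or E14.

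Many messenger RNAs of the translation machinery begin with a run of pyrimidines, through which growth signals control their use by ribosomes. A run of at least 8 letters C or T on the sense strand, beginning within 10 bases of the start, was found in 4 of the 38 members (10.5%). The shares were 11.9% of tested genes and 10.7% of all genes with a promoter, close to that of the members. The runs are in capitals.
Eef1a1, chr9:78481716-78481735, minus strand: gctccgCCCTCTTCCCgagg
Eif2s3x, chrX:94212637-94212662, minus strand: cgagcaTTTTCCTTTTCTCTCCgagc
Eif3l, chr15:79075210-79075229, plus strand: gcggagTTCTTCTTCCgctc
Eif2b2, chr12:85219480-85219497, plus strand: agttgaCCTCTCTCggcc
Of these 4 genes, Eif3l and Eif2b2 were lower from E18 on, and Eef1a1 and Eif2s3x did not pass the test.

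Of the 4 start site factors kept, 1 was lower after birth, 1 was higher and 2 did not pass, and 2 were lower from E18 on. Eif1b, a form of the factor that scans for the start codon, gave signals of 2674 at E12, 2876 at E14, 2148 at E16 and 1427 at E18, and 1277, 1333, 1667, 1243, 1318.5, 1569.8 and 1460.2 from P1 to the adult age. All 3 early signals lay above all later ones, and signals from E18 on were 1.81-fold lower (log2 -0.86 ± 0.14, adjusted p = 0.000444). A further Eif1b probe set moved less, at -0.10 from E18 on. Eif5a, a factor named for initiation that also eases ribosomes through difficult stretches, gave signals of 3845.5 at E12, 3224 at E14, 3050.3 at E16 and 1066 at E18, and 1929, 2290.0, 1512, 957.1, 993.8, 596.2 and 920.3 from P1 to the adult age. Its E12 to E16 signals did not overlap with the later ones, and it was 2.85-fold lower from E18 on (-1.51 ± 0.34, adjusted p = 0.00377), while the difference between eras did not pass (adjusted p = 0.0642). Eif1a, which works beside eIF1, lay between 291.2 and 526.5, with its highest signal at P1, and fell only by the line on age order (adjusted p = 0.0195).

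Eif5, which makes eIF2 release its GTP once the start codon is found, went against the group. Its signal was 344.1 at E12, 392.9 at E14, 480.1 at E16 and 162.5 at E18, and 1068, 902.2, 615.3, 936.3, 809.0, 237.3 and 975.5 from P1 to the adult age. The postnatal signals other than P21 all lay above every embryonic one, and the mean was 2.26-fold higher after birth (1.18 ± 0.41, adjusted p = 0.0458). Of the 11 fits that left out 1 age, 1 kept the call, and without E18 the adjusted p was 0.106. From E18 on the difference was 0.58 ± 0.54, adjusted p = 0.416, its E18 signal being the lowest of all.

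In the eIF2 and eIF2B group, 4 of 8 genes were lower after birth and 5 were lower from E18 on, with none higher. Eif2s2, the beta subunit of eIF2, gave signals of 1649 at E12, 1941 at E14, 1223 at E16 and 827.7 at E18, and 623.1, 705.9, 718.6, 700.3, 490.5, 819.3 and 729.8 from P1 to the adult age. The early signals stood clear of the later ones, 2.27-fold higher on average (late minus early -1.18 ± 0.18, adjusted p = 0.000369). Eif2b1, the alpha subunit of the exchange factor eIF2B, gave signals of 820.2 at E12, 792.7 at E14, 599.5 at E16 and 426.3 at E18, and 465.0, 430.1, 471.0, 377.7, 356.3, 417.0 and 424.9 from P1 to the adult age. Its levels from E18 on varied little, between 356.3 and 471.0, against 599.5 to 820.2 before (-0.80 ± 0.14, adjusted p = 0.000675).

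Eif2a, an initiation factor separate from the eIF2 complex, gave signals of 736.9 at E12, 628.9 at E14, 707.4 at E16 and 479.5 at E18, and 459.1, 449.1, 517.5, 429.4, 376.2, 349.4 and 420.7 from P1 to the adult age. It was 1.6-fold lower from E18 on (-0.67 ± 0.14, adjusted p = 0.00206). Eif2b4, the delta subunit of eIF2B, gave signals of 929.7 at E12, 874.3 at E14, 819.9 at E16 and 841.1 at E18, and 730.0, 723.9, 603.5, 754.4, 651.2, 461.5 and 567.5 from P1 to the adult age. It was lower between eras (-0.45 ± 0.15, adjusted p = 0.0383), a call lost without E12, E14, E16, P7, P14 or the adult age (adjusted p up to 0.110), and it did not pass from E18 on (adjusted p = 0.0697). Its E18 signal lay among the early ones. The eIF2B epsilon gene Eif2b5, which holds the exchange activity, went from 599.3 at E16 to 265.6 at E18 and was lower from E18 on (-1.01 ± 0.20, adjusted p = 0.00164). Eif2b2, the beta subunit of eIF2B, was lower from E18 on (-0.78 ± 0.27, adjusted p = 0.0346), with a P4 signal of 322.1 that lay far under its neighbours of 962.8 and 733.6. Its call was lost without E12, E14, E16 or P10 (adjusted p up to 0.112). Eif2s3x and Eif2d passed neither comparison, with differences from E18 on of -0.38 and -0.13.

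The eIF3 complex holds the most genes of any initiation factor. Of its 9 genes kept, 3 were lower after birth and 6 from E18 on, with a median of -0.62 from E18 on. Eif3l, a subunit of the complex, gave signals of 2301 at E12, 2197 at E14, 2160.1 at E16 and 1365 at E18, and 1550.3, 1269.7, 1344, 1342, 1192, 941.3 and 883.8 from P1 to the adult age. Its early signals lay within 2160 to 2301 and above all later ones (-0.87 ± 0.17, adjusted p = 0.00175). Eif3e gave signals of 427.5 at E12, 363.4 at E14, 427.4 at E16 and 369.6 at E18, and 284.9, 292.0, 260.5, 241.6, 205.2, 172.2 and 220.1 from P1 to the adult age. Its E18 signal lay within the early range and lower signals began at P1, with a difference between eras of -0.75 ± 0.16, adjusted p = 0.00766. Eif3k gave signals of 2701 at E12, 2157 at E14, 2301 at E16 and 1862 at E18, and 1708, 1719.9, 1689, 1850.3, 1299.9, 973.2 and 1091 from P1 to the adult age. It was 1299.9 or less from P14 on and lower between eras (-0.64 ± 0.20, adjusted p = 0.0319), a call lost without E12, E14, E16, P14 or the adult age (adjusted p up to 0.109).

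The other eIF3 genes were chosen for mention after their values were seen. Eif3c went from 2642 at E16 to 1291 at E18 and back to 2164 at P1, and was lower from E18 on (-0.65 ± 0.17, adjusted p = 0.00713) but not between eras (adjusted p = 0.287). Eif3a and Eif3d were also lower from E18 on, by 0.62 and 0.50 on the log2 scale (adjusted p = 0.0138 and 0.02). The Eif3a call was lost without E12 or E14 (adjusted p up to 0.0547) and the Eif3d call without E14 (adjusted p = 0.114). Eif3b, Eif3h and Eif3m passed neither comparison, with differences from E18 on of -0.29, -0.30 and -0.35.

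Of the 6 genes kept in the eIF4 group, Pabpc1 included, 4 were lower after birth, 3 from E18 on, and none was higher. Eif4a1, the RNA helicase that unwinds the start of messages, gave signals of 7746 at E12, 6443 at E14, 5567 at E16 and 4003 at E18, and 3215, 2895, 3415, 3153, 2709, 2492 and 2182 from P1 to the adult age. Its signal was highest at E12 and lowest in the adult, a ratio of 3.55, and 2.04-fold lower after birth (-1.03 ± 0.19, adjusted p = 0.00418). Pabpc1, which binds the poly(A) tail and bridges it to the cap, gave signals of 15572 at E12, 12734.5 at E14, 12469 at E16 and 8949 at E18, and 8256, 6069, 8399, 5852, 5334, 4243 and 5031 from P1 to the adult age. No later signal reached the early ones, and it was 2.03-fold lower after birth (-1.02 ± 0.21, adjusted p = 0.00726). After quantile normalisation both differences between eras were smaller, at -0.86 for Eif4a1 and -0.72 for Pabpc1. Pabpc1 was then highest at E16 (11811) and not at E12 (10467).

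Eif4e2, a relative of the cap-binding protein eIF4E that can block translation of bound messages, gave signals of 747.8 at E12, 655.7 at E14, 554.9 at E16 and 451.3 at E18, and 459.0, 388.4, 375.2, 342.3, 349.8, 446.8 and 344.0 from P1 to the adult age. It was 1.65-fold lower from E18 on (-0.73 ± 0.15, adjusted p = 0.00187). Eif4b, the helper of the helicase, gave signals of 3194 at E12, 3766 at E14, 3478 at E16 and 3259 at E18, and 3201.5, 2368, 2999, 2689, 2136, 1787 and 1793 from P1 to the adult age. On this probe set its signal was 3194 or more through P1 and 2999 or less from P4 on. The difference between eras was -0.53 ± 0.18, adjusted p = 0.043, and 3 of the 11 fits that left out 1 age kept the call (adjusted p up to 0.127). A further Eif4b probe set was already lower at E18, going from 1631 at E16 to 1199 (-0.81 from E18 on). Eif4g2, a scaffold protein that starts translation without the cap-binding protein, lay between 1058 at P21 and 2531 at P7 and passed neither comparison (adjusted p = 0.471 between eras). Eif4e itself, the cap-binding protein, stayed at 93.4 or less and was not tested.

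Of the 6 elongation factor genes, 3 were lower after birth and 1 (Eef1a2) was called higher, and 4 were lower from E18 on. The 3 that fell between eras, Eef1b2, Eef1d and Eef1g, are subunits of the complex that reloads eEF1A with GTP. Eef1b2 gave signals of 2945 at E12, 3189 at E14, 3111 at E16 and 2172 at E18, and 1613, 1577, 1453, 1314, 1017, 844.1 and 1111.5 from P1 to the adult age. Its early signals lay above all later ones, the lowest being 844.1 at P21, and it was 2.27-fold lower between eras (-1.18 ± 0.20, adjusted p = 0.00325). Eef1d gave signals of 2815.5 at E12, 3359 at E14, 2493 at E16 and 1399 at E18, and 1281, 1255, 1409, 1274, 1014.5, 970.1 and 1177 from P1 to the adult age. Eef1g gave signals of 3332 at E12, 4426 at E14, 3562 at E16 and 1827 at E18, and 2129, 1848, 1546, 1448, 1489, 1415 and 1541 from P1 to the adult age. Eef1d and Eef1g were already low at E18, and both were lower between eras (-1.01 ± 0.21, adjusted p = 0.00747 and -0.96 ± 0.22, adjusted p = 0.00948).

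Eef1a1, the factor that brings transfer RNAs to the ribosome, gave signals of 33403 at E12, 14794 at E14, 12481.3 at E16 and 12591 at E18, and 11751, 10557, 17869.8, 14413, 12239.8, 12736 and 8784 from P1 to the adult age. The E12 signal stood far above all others, which overlapped between eras, and the difference did not pass (-0.44 ± 0.27, adjusted p = 0.24). The brightest signal of any probe set on chip B was 35736 at E12, 22077 at P7 and 11989 in the adult, so the upper end of these arrays moved with Eef1a1. After quantile normalisation the Eef1a1 signal at E12 was 17160 and the difference between eras was 0.07. Of 4 Eef1a1 probe sets kept, their differences between eras ran from -0.85 to 0.13, and their probes may also respond to related copies of the gene.

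Eef2, the factor that moves the ribosome forward, gave signals of 8866.5 at E12, 9319 at E14, 8262 at E16 and 7028 at E18, and 7245, 7435, 8273, 6918, 6459.5, 5836 and 6207 from P1 to the adult age. From E18 on it was lower by the test (-0.35 ± 0.13, adjusted p = 0.0394), and 4 of the 11 fits that left out 1 age kept the call (adjusted p up to 0.146). After quantile normalisation the Eef2 difference was -0.06, with an adjusted p of 0.708. Eef1a2, the form of eEF1A made in muscle, heart and nerve in place of Eef1a1, was dim in the embryo. Its signal was at the floor of 72.3 at all 4 embryonic ages and at P7, and was 198.5 at P1, 138.7 at P4, 112.7 at P10, 135.8 at P14, 369.4 at P21 and 266.3 in the adult. The difference between eras was 1.17 ± 0.36, adjusted p = 0.0302, but the gene was tested at all only because its P21 and adult signals passed the chip median of 250.3, so this p supports nothing. The embryonic values are all at the floor, and the difference was 1.95 with the floor at the 10th percentile and 0.31 (adjusted p = 0.309) with it at the 40th. The summed signal of 8 skeletal muscle markers was 20891 at P21, where Eef1a2 was highest, against 2947 to 8948 at the other ages, with 7 of the 8 highest at P21, and 3 further genes of that list were too dim to test. The summed signal of 6 heart markers was 5883 to 12153 at the embryonic ages and 10746 to 20323 after birth. Of 7 nerve markers 2 were bright enough to test, summing to 458.4 at E12 and 950.0 in the adult. The part of such tissue in the Eef1a2 signal was not tested.

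Nearly all CCT subunits fell. Of the 9 subunit genes, 7 were lower after birth and 8 from E18 on, with none higher. Cct8 (theta subunit) gave signals of 2612 at E12, 3264 at E14, 2034.5 at E16 and 1169 at E18, and 971.3, 956.1, 1297, 842.3, 922.5, 550.4 and 845.9 from P1 to the adult age. Cct6a (zeta) gave signals of 2329 at E12, 2756 at E14, 2388 at E16 and 799.5 at E18, and 810.3, 900.0, 1039, 972.9, 665.9, 687.3 and 614.1 from P1 to the adult age. Both had early signals well above all later ones, and from E18 on they were 2.82-fold and 3.11-fold lower (-1.49 ± 0.23, adjusted p = 0.0004 and -1.64 ± 0.17, adjusted p = 4.85e-05). Cct2 (beta) gave signals of 4904 at E12, 4708 at E14, 3659.5 at E16 and 1863 at E18, and 2056, 1892, 2606, 1753, 1519.9, 1428 and 1162.5 from P1 to the adult age. Tcp1, the alpha subunit, gave signals of 2517 at E12, 2672 at E14, 2112 at E16 and 1241 at E18, and 1028, 1350.0, 1408, 1012, 939.6, 914.3 and 922.7 from P1 to the adult age. Neither overlapped between early and late ages, and both were lower from E18 on (-1.34 ± 0.21, adjusted p = 0.000487 for Cct2 and -1.16 ± 0.17, adjusted p = 0.000279 for Tcp1).

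The other subunits that fell were Cct3, Cct4, Cct5 and Cct7, with differences from E18 on of -1.24, -1.05, -1.20 and -1.10 (adjusted p at most 0.000606). The 8 falling subunits kept between 26.4% and 52.1% of their E12 signal at E18, and between 23.7% and 44.2% in the adult. Cct3 missed the threshold between eras (adjusted p = 0.0718), its E18 signal of 436.3 being its lowest. Cct6b, a zeta subunit gene known for expression in testis, stood apart at 79.3 to 264.2, with no order by age and no call (-0.39 ± 0.36, adjusted p = 0.418).

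Both nucleolar genes fell, with a median difference from E18 on of -1.83. Fbl, the enzyme that methylates ribosomal RNA, gave signals of 3653 at E12, 4012 at E14, 3211.5 at E16 and 714.4 at E18, and 1221, 987.9, 948.9, 1077.5, 719.1, 859.7 and 820.4 from P1 to the adult age. The step from E16 to E18 was 4.5-fold in these single pools, and from E18 on it was 3.99-fold lower (-2.00 ± 0.18, adjusted p = 1.78e-05). Ncl, which binds nascent ribosomal RNA, gave signals of 7590.5 at E12, 5242 at E14, 4265 at E16 and 2119 at E18, and 2725, 2617, 2223, 1596, 1325, 1100.5 and 1169 from P1 to the adult age. Its E12 signal was 6.49 times the adult one, and late minus early ages gave -1.65 ± 0.31, adjusted p = 0.00113.

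None of the 4 genes kept that restrain translation passed a test. Eif4ebp1, whose protein sequesters eIF4E until growth signals release it, gave signals of 1172 at E12, 1320.2 at E14, 1144 at E16 and 1181 at E18, and 990.3, 1342, 1117.5, 1425, 1116.5, 1105 and 1029 from P1 to the adult age. Its embryonic and postnatal signals overlapped fully (-0.06 ± 0.13, adjusted p = 0.742). Eef2k, the kinase that stops eEF2, gave signals of 250.5 at E12, 261.4 at E14, 233.8 at E16 and 287.2 at E18, and 196.8, 194.4, 165.2, 203.5, 212.3, 257.9 and 185.6 from P1 to the adult age. Its signal was highest at E18 and lowest at P7, and the difference between eras missed the threshold (-0.36 ± 0.13, adjusted p = 0.0584). Eif2ak2, the double-stranded RNA kinase that blocks eIF2, lay between 190.5 and 329.2 and did not pass (0.06 ± 0.16, adjusted p = 0.812).

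Eif4ebp2, a relative of Eif4ebp1, gave signals of 816.9 at E12, 754.4 at E14, 420.1 at E16 and 393.8 at E18, and 1452, 1162, 977.0, 1295.5, 992.4, 299.9 and 1446 from P1 to the adult age. It was low at E16, E18 and P21 and passed no test (0.81 ± 0.40, adjusted p = 0.142). The 2 other Eif4ebp2 probe sets were not low at P21, at 967.5 and 696.5.

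The step from E16 to E18 compared 1 pool with 1 pool and has no test. In it 41 of the 48 members were lower by any amount, against 45.7% of all genes, with a median step of -0.50 over the members and 0.06 over all genes. At least 2-fold lower were 10 members, against 5.98% of all genes, and at least 2-fold higher 0, against 8.33%. The 10 were Cct3, Cct5, Cct6a, Cct7, Eif2b5, Eif3c, Eif5, Eif5a, Fbl and Ncl. From E14 to E16 39 members were lower, against 48.9% of all genes, with a median step of -0.19 over the members and 0.0025 over all genes. At birth, from E18 to P1, 0 members were at least 2-fold lower, against 3.17% of all genes, and 2 (Eif4ebp2 and Eif5) at least 2-fold higher, against 4.12%. The median step at birth was 0.04.

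Few members passed a test of change after birth. A straight line over the 7 postnatal ages alone was called lower in 1 member, Ncl (-0.25 ± 0.04 per age step, adjusted p = 0.0198), against 1.23% of all genes. It was called higher in 0 members, against 1.86%. At an unadjusted p under 0.05 the line was called in 996 of the 4130 genes and in 17 of the 48 members. All 17 fell, and how many of the 996 fell was not counted. Eif5a came next to the threshold (-0.27 ± 0.06 per age step, adjusted p = 0.0523). The Ncl call was lost without P4, without P21 or without the adult age.

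Some members have a close relative in the same role, and their courses were set side by side as the log2 ratio of their signals. Such a ratio shows unequal change, not which gene is more abundant. The ratio of Eif4a2 to Eif4a1 was -1.18 ± 0.62 (SD, n = 4) at the embryonic and 0.08 ± 0.43 (SD, n = 7) at the postnatal ages, a rise of 1.26 (exact permutation test, two-sided, p = 0.00606, adjusted over 4 pairs p = 0.0242). The test treats ages as exchangeable, which neighbouring ages are not, so its p is likely too low. The ratio ran from -1.69 at E12 to 0.88 in the adult. The Eif4a1 probe set carries the suffix for a gene family, and its signal may include related genes. Eif4a2, the other eIF4A helicase, gave signals of 2398 at E12, 2073 at E14, 2703 at E16 and 3111 at E18, and 3007, 2663, 2547, 2780.4, 3405, 2753 and 4022 from P1 to the adult age. Its own difference between eras did not pass (0.23 ± 0.16, adjusted p = 0.283), and its highest signal was in the adult, where Eif4a1 was lowest.

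The log2 ratio of Eef1a2 to Eef1a1 was -7.85 at the embryonic and -6.25 at the postnatal ages on average, given without a test because Eef1a2 was at the floor in the embryo and kept only through postnatal ages. For Cct6b over Cct6a the difference was 0.80 (exact p = 0.173) and for Eif4ebp2 over Eif4ebp1 0.87 (exact p = 0.0818, adjusted p = 0.109). The smallest p the test allows is 0.00303.

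**Figure D4:**
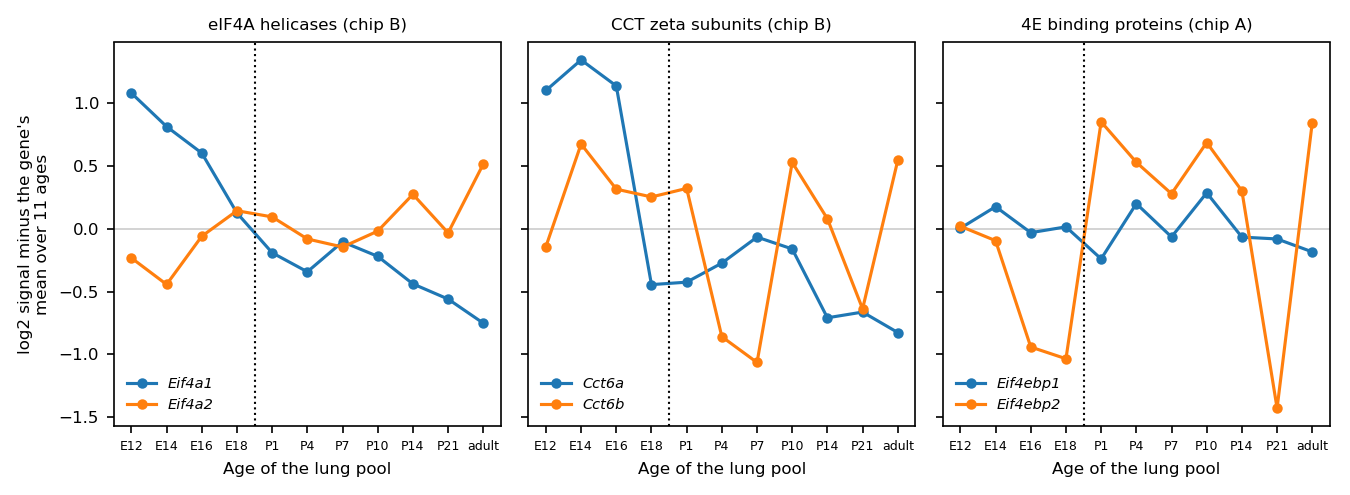
log2 signal minus the gene's own mean over 11 ages (vertical axis) by age (horizontal axis, birth dotted, 1 pool each) for 3 pairs of relatives. Eif4a1 descends while Eif4a2 is highest in the adult, Cct6b lacks the drop of Cct6a between E16 and E18, and Eif4ebp2 is low at E16, E18 and P21 while Eif4ebp1 is level.

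E18 and P21 held low signals for some members. At E18, 26 members were lower than at both E16 and P1, against 27.7% of all genes. At P21, 25 were lower than at both P14 and the adult age, against 31.1%. Eif5 alone among the members was at least 2-fold lower at both ages than at their neighbours, as were 7 genes (0.169%) in all. The control signals also differed at these ages. On chip A the ratio of the 3′ to the 5′ beta-actin control was 0.65 at E18 and 0.90 at P21, against 0.20 to 0.60 at the other ages. On chip B, which holds Eif5 and Eif5a, it was 0.35 and 0.31, against 0.157 to 0.493 at the other ages between E14 and P14. It was 0.935 at E12 and 0.00914 in the adult on that chip, the first and last ages, where the members were highest and among their lowest. The 5′ control of 18S ribosomal RNA on chip B was 81.4 at E18 and 71.7 at P21, against 187.7 to 403.5 at the other postnatal ages and 14.0 to 65.6 at E12 to E16. At P21 the summed signal of 5 squamous epithelium markers was 7207, against 1491 to 2667 at the other ages. Krt4 (4292) and Sprr1a (1742) made up most of it, and Krt14, Krt17 and Krt6a lay within their range at the other ages. The part of RNA quality and of other tissue in these low signals, and at the first and last ages, was not tested. Without E18 and P21, chosen after these controls were seen, both comparisons set E12 to E16 against the same postnatal ages. They gave 31 members lower and 3 higher, and 866 genes lower and 962 higher of all 4130.

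**Figure D5:**
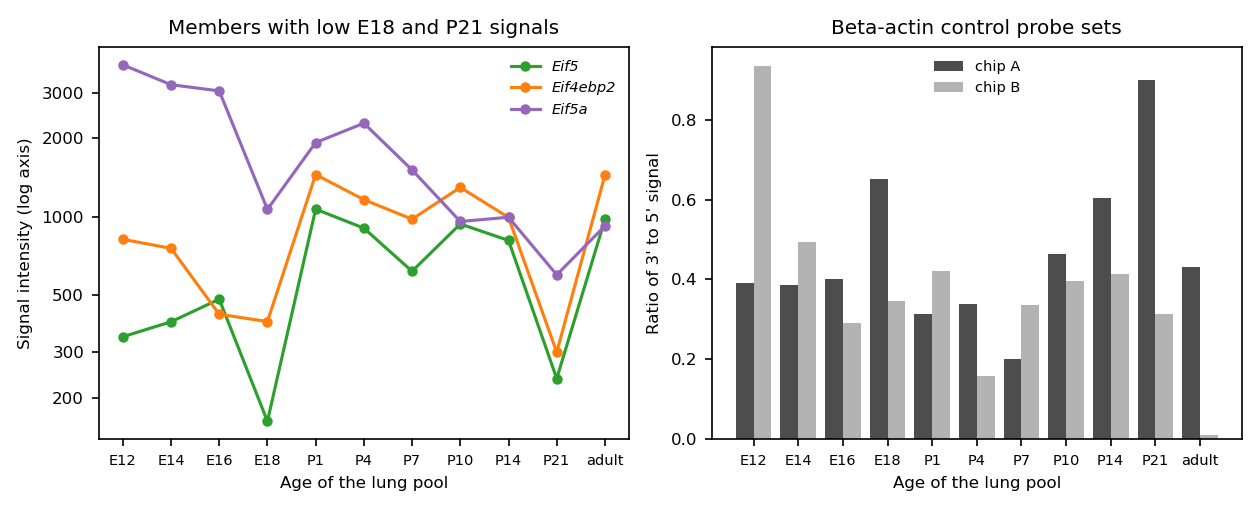
Signal intensity of Eif5, Eif4ebp2 and Eif5a by age (left, log axis, 1 pool each), and the ratio of 3′ to 5′ beta-actin control signal by age on both chips (right, bars from 0). Eif5 and Eif4ebp2 are low at E18 and P21, where the ratio is 0.65 and 0.90 on chip A and 0.35 and 0.31 on chip B.

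The 6 genes too dim to test were Eif3i, Eif3j1, Eif4e, Eif4enif1, Eif4h and Eif6, none above 122.7 at any age, and Npm1 was not analysed here. For 13 members more than 1 probe set was bright enough to keep. Their differences from E18 on had the same sign within 11 of these genes, the exceptions being Eef1a1 and Eif4ebp2. For 8 members the probe set carried the suffix for a gene family, and its signal may include related genes.

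Partner genes of translation and folding were counted from lists drawn up with earlier results of these data known. Genes above the chip median on 1 side of birth or of E18 only had to differ and are left out of the counts, which stand against 14.2% of all genes lower and 16.8% higher between eras, and 21.0% lower from E18 on. In ribosome assembly 10 of 22 genes were lower after birth and 17 from E18 on, with none higher. Nop56, a partner of fibrillarin left out of the count, went from 862.2 at E12 and 325.8 at E16 to the floor of 72.3 at E18. Mybbp1a, a nucleolar protein, differed by -1.74 (adjusted p = 0.0105). Of 14 genes of the aminoacyl transfer RNA synthetases, which charge transfer RNAs, and their scaffold protein Aimp1, 4 were lower between eras (Aimp1 by -0.83) and 8 from E18 on. Yars, left out of the count, was 279.3 to 400.7 at E12 to E16 and 166.9 or less later. The next lists are too short to set against the shares of all genes. Of 4 genes of termination and ribosome recycling, 1 (Abce1, -0.83) was lower between eras and 2 from E18 on. Of 3 partners of poly(A) and cap kept, 1 was lower (Ncbp2, -0.91).

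Of 9 genes kept around mTOR and MYC, 1 was lower and 1 was higher between eras, against 14.2% and 16.8% of all genes, so the list does not stand out. The lower one was Mycn, a MYC family gene of embryonic growth, which gave signals of 564.8 at E12, 480.7 at E14, 408.2 at E16 and 117.9 at E18, and 119.7, 205.4, 204.2, 175.4, 131.8, 47.3 and 47.3 from P1 to the adult age. Its last signals lay at the floor, and the difference was -1.56 (adjusted p = 0.0422). Max, the partner that binds the E-box with MYC, was higher by 0.44 (adjusted p = 0.0346).

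In folding, 2 of 3 prefoldin and tubulin cofactor genes kept were lower between eras, Pfdn6 (-0.76) and Tbca (-0.67). Of 7 genes of actin and tubulin, the proteins CCT folds, 1 was lower (Tubb5, -0.99) and 2 were higher (Actb, 1.17, and Tuba4a, 0.78), against 14.2% and 16.8% of all genes. Tubb5, a beta tubulin, gave signals of 14188 at E12, 13695 at E14, 10521 at E16 and 6056.5 at E18, and 6000.3, 7616, 6954, 5157, 5062, 5379.7 and 2734 from P1 to the adult age. Actb, beta actin, gave signals of 1289.7 at E12, 1438 at E14, 1248 at E16 and 1038 at E18, and 4288, 3291, 1712, 4339, 3618, 1531 and 2295.5 from P1 to the adult age. The separate beta-actin controls on the same chip did not follow it: the 5′ control lay between 9227 and 10990 at all ages, and the 3′ control was highest at E18 (7145) and P21 (9444). Of 5 mitochondrial chaperonin and import genes, 3 were lower between eras (Hspe1 by -1.40) and 5 from E18 on. Timm8a1, left out of the count, was 285.2 to 520.4 at E12 to E16 and 172.3 or less later.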

How the data were processed

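The authors deposited 1 linear intensity per probe set for each of 22 arrays, already scaled: the mean after trimming 2% was 500.1 to 500.2 on chip A and 498.3 to 498.9 on chip B. The summary of probe cells into that intensity is not stated in the labels or files. Symbols came from the platform annotation, checked against a RefSeq gene table. A floor was placed at the 25th percentile of each chip, 72.3 for A and 47.3 for B. Probe sets above the chip median (250.3 on chip A, 176.7 on chip B) at 2 or more ages were kept, the brightest on average standing for its gene, and values taken to log2. Tests used limma 3.58.1 in R 4.3.3, two-sided, and ratios of related genes an exact permutation test over 330 splits. Other settings are in the closing section. Errors with ± are SE unless SD is written. The fits were tested on simulated data. A single array per age and chip limits the precision. Values at every age are given for 9 named genes, for up to 4 members per role with the largest called differences between eras, or the largest 2 where none passed, and for members called against their group. Other members are mentioned after their values were seen. Members and lists were chosen with earlier results of these data known. Scanner settings were not used here.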

Additional observations from a re-analysis of the deposited data

How the results depend on the processing

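In 21 alternative settings the count of members lower between eras went from 24 to between 10 and 32 with 1 age left out. It was 0 with age order added, where 1 gene was called lower and 4 higher of all 4130. In that fit Cct2 (0.015), Eif3k (0.15), Eif3l (0.054), Eif4b (0.11) and Ncl (0.29) also turned to differences above 0. The 2 members higher between eras became 1 with the floor at the 40th percentile, 1 with at least 6 ages above the median, 0 without a filter, 0 with quantile normalisation, 0 with arrays centred on their median, 0 with age order added and 0 to 3 with 1 age left out. The line on age order called 32 members lower, 29 to 36 in settings that kept all ages and 25 to 33 with 1 age left out. Its single higher member became 0 with the floor at the 40th percentile, with at least 6 ages above the median and with centred arrays, 1 to 3 with 1 age left out, and 3 without E18 and P21. From E18 on 30 members were lower, 29 to 35 in settings that kept all ages and 25 to 32 with 1 age left out. The 0 higher became 1 with the floor at the 10th percentile, 0 to 1 with 1 age left out and 3 without E18 and P21. The postnatal line called 2 members with at least 6 ages above the median, with centred arrays and with an intensity trend, 0 to 1 with 1 age left out and 0 without E18 and P21. The E16 to E18 step held 8 to 14 members at least 2-fold lower. Counts over all genes are not given here for the fits with 1 age left out. The cause of these moves was not tested. Fits that leave ages out also have fewer pools, and the part of that was not tested either. No paired analysis was possible because each age was 1 pool without a replicate.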
